A study of Mus musculus with 6 samples.

Results

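The EGF receptor family and its ligands were followed in E14 mouse embryonic submandibular glands (eSMGs) by reading 10 gene symbols, 4 receptors (Egfr, Erbb2, Erbb3 and Erbb4) and 6 ligands (Egf, Tgfa, Hbegf, Areg, Nrg1 and Btc), from count tables that list 23260 genes. All 10 symbols were found, each on 1 line. The eSMGs came from ICR embryos at embryonic day 14 and were cultured ex vivo, either as controls or with 50 µM AMD3100, an antagonist of the chemokine receptor CXCR4, and RNA was taken 6 h after the treatment began. Up to 10 whole glands were pooled in a tube, and 3 tubes (replicates) per group gave 6 libraries of 3′ mRNA, in which reads come from the 3′ end of each transcript. The labels name no genetic change in either group. The labels do not say whether the tubes came from separate litters, so the p-values measure only the spread between these tubes. Each tube held epithelium, mesenchyme, nerve and vessels together, and fewer cells of a type cannot be told apart from less RNA per cell.

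The receptors are tyrosine kinases of the cell surface that pair with each other once a ligand binds. EGFR binds EGF, TGF-alpha, amphiregulin (Areg), HB-EGF (Hbegf) and betacellulin (Btc), whereas ERBB3 and ERBB4 bind the neuregulins, of which Nrg1 is one, and ERBB4 also takes HB-EGF and betacellulin. ERBB2 has no known ligand of its own and acts as the partner of the others, and ERBB3 has very weak kinase activity and relies on its partner. The ligands are made as membrane precursors and are released by proteases of the ADAM family. In the submandibular gland, EGF signalling is known to promote branching of the embryonic epithelium, and the adult male mouse gland is a classic source of EGF.

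Between 9051595 and 14393031 reads were counted on genes in a library, and the 10 genes together took between 481 and 759 of them. Levels are given as CPM, the counts scaled to a common library total, after TMM normalization, and the floor was set at 3 counts, which is 0.173 to 0.368 CPM. Because PCR copies of a molecule are counted as separate reads, this floor and the intervals of shares cover counting error only. The replicate 3 libraries of both groups stood apart from the others before any result on the family. On the first principal component of log2 CPM, which held 38.2% of the variance, they lay at 84.8 (control) and 80.8 (AMD3100), and the 4 other libraries lay between -78.7 and -17.4. They also listed the most genes with a count, 16249 and 16345, against 13761 to 15533 in the others. Along the next component, with 26.3% of the variance, control replicate 1, at 82.3, lay apart from AMD3100 replicate 2, at -87.6, with the 4 others between -16.6 and 25.9. The ribosomal RNA gene Rn45s took between 16.2% (AMD3100 replicate 1) and 32.5% (AMD3100 replicate 2) of the counts of a library. Because the replicate 3 libraries stood apart, the values of the tested members are also given without both of those libraries.

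Erbb2 was the most abundant member, and Hbegf and Egfr followed. Over all 6 libraries, Erbb2 averaged 34.1 ± 20.6 CPM, Hbegf 7.41 ± 2.55 CPM and Egfr 5.78 ± 2.09 CPM (SD, n = 6 each). The lowest value of Erbb2, 21.6 CPM, was above the highest of Hbegf, 11.1 CPM. Hbegf and Egfr did not differ beyond their spread, Hbegf being the higher in 4 of 6 libraries. Btc at 1.27 ± 0.930 CPM (SD, n = 6) stood below Egfr in 6 of 6 libraries. Nrg1 at 0.899 ± 0.504 CPM (SD, n = 6) overlapped with Btc, which was the higher in 3 of 6 libraries, had the same count in 2 and was the lower in 1. The 5 remaining genes, Egf, Areg, Erbb3, Tgfa and Erbb4, were at 0 counts in at least 3 libraries each. These levels are not divided by transcript length, since a 3′ library yields reads from the end of a transcript whatever its length. Divided by the length of the longest annotated transcript, the first 5 kept this order, from 6.81 CPM per kb for Erbb2 through 3.12 for Hbegf and 0.566 for Egfr to 0.455 for Btc and 0.427 for Nrg1.

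**Figure D1:**
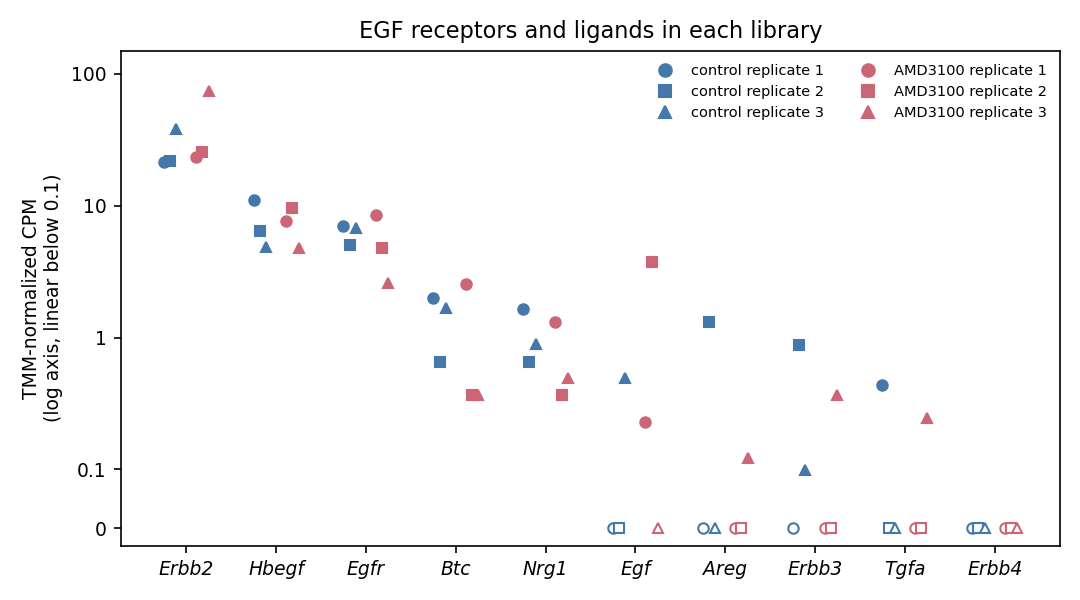
TMM-normalized CPM (log axis, linear below 0.1) of the 10 genes, ordered by their mean, with 1 point per library, controls in blue and AMD3100 in red, and open symbols for a count of 0. Erbb2 lies between 21.6 and 74.2 CPM in every library, and Erbb4 lies at 0 in all 6.

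Erbb2 lies on chromosome 11 from 98412484 to 98437716 (GRCm38). It had 247, 301 and 386 reads in the control tubes against 407, 276 and 605 under AMD3100, or 21.6, 21.9 and 38.4 CPM against 23.4, 25.4 and 74.2 CPM. The groups overlapped, and the replicate 3 library was the highest of each group. Within each replicate number, the AMD3100 library was the higher, in 3 of 3 pairs. The fold change of AMD3100 over control was 1.5 (95% interval 0.684 to 3.29), or 0.58 ± 0.50 (SE) on the log2 scale (edgeR unadjusted p = 0.273, adjusted p = 1.0). The log2 fold change was -0.17 without AMD3100 replicate 3, a fit that keeps the high control replicate 3, and 0.92 without control replicate 3. Without both replicate 3 libraries it was 0.16 (95% interval -0.61 to 0.93). With the replicate number as a block it was 0.43 (95% interval -0.12 to 0.98).

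The last 300 bases of Erbb2 are overlapped by Mien1 on the opposite strand in GENCODE vM1, and the sources used here do not say whether counting used the strand. Mien1, a gene chosen for this position after the Erbb2 values were seen, had 97.4, 59.4 and 33.5 CPM in control and 91.5, 71.2 and 40.3 CPM in AMD3100. Mien1 was lowest in the replicate 3 libraries, where Erbb2 was highest. In same-numbered pairs 2 and 3 Mien1 was higher under AMD3100, as Erbb2 was, and in pair 1 it was lower. The part of reads from Mien1 in the Erbb2 counts was not tested. None of the 11 stretches of 50 bases taken from the 3′ end of Erbb2 matched another place of the genome. Neither poly(A) signal, AATAAA or ATTAAA, was found in the last 40 bases of the annotated Erbb2 transcript.

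Egfr, on chromosome 11 from 16752203 to 16913907, is the receptor for most of the ligands examined. It had 80, 69 and 68 reads in the control tubes against 148, 52 and 21 under AMD3100, or 6.99, 5.02 and 6.77 CPM against 8.51, 4.79 and 2.57 CPM. The controls lay within 1.39-fold of each other, whereas the AMD3100 libraries spread over 3.31-fold and lay on both sides of them. The estimate on the log2 scale was -0.23 ± 0.62 (SE, 95% interval -1.63 to 1.16, edgeR unadjusted p = 0.713). In 2 of 3 same-numbered pairs the AMD3100 library was below its control. Its log2 fold change was 0.08 without AMD3100 replicate 3, -0.76 without AMD3100 replicate 1 and 0.14 without both replicate 3 libraries.

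Erbb2 and Egfr took unequal shares of the receptor reads. Erbb2 made up 75.5% (95% Wilson interval 70.6 to 79.9), 78.8% (74.4 to 82.6) and 84.8% (81.2 to 87.8) of the reads of the 4 receptors in control replicates 1 to 3. In AMD3100 replicates 1 to 3 it made up 73.3% (69.5 to 76.8), 84.1% (79.8 to 87.7) and 96.2% (94.4 to 97.4). The groups overlapped, and only the interval of AMD3100 replicate 3 lay clear of all the others. In that library there were 28.8 Erbb2 reads for each Egfr read, against 2.75 to 5.68 in the 5 others.

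**Figure D2:**
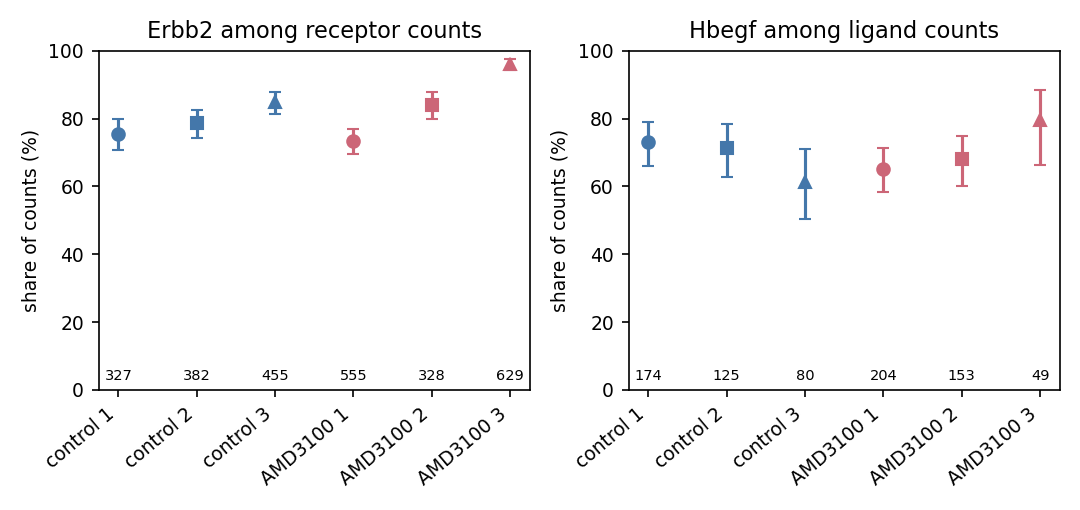
Share (%) of Erbb2 among the counts of the 4 receptors (left) and of Hbegf among the counts of the 6 ligands (right) in each library, with 95% Wilson intervals and the number of counts behind each share at the bottom. Erbb2 reaches 96.2% in AMD3100 replicate 3 and lies between 73.3% and 84.8% elsewhere, whereas the intervals of Hbegf overlap.

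Erbb3 and Erbb4, the neuregulin receptors, were barely counted. Erbb3, on chromosome 10 from 128567523 to 128589635, had 0, 12 and 1 reads in the control tubes against 0, 0 and 3 under AMD3100. Of its 16 counts, 75.0% came from control replicate 2, the single library above the floor, so that no fold is given. Erbb4, on chromosome 1 from 68031884 to 69108576, had 0 counts in all 6 libraries, which allows a level of up to 0.208 to 0.331 CPM of the library totals. Both genes end in a stretch whose 50-base pieces matched no other place, and both carry the poly(A) signal AATAAA in the last 40 bases of the annotated transcript. The annotation and strand setting behind the counts are not given in the sources used here, and their part in these low counts was not tested.

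Hbegf led the ligands. This gene for HB-EGF, on chromosome 18 from 36504927 to 36515805, had 127, 89 and 49 reads in the control tubes against 133, 104 and 39 under AMD3100. The levels were 11.1, 6.47 and 4.88 CPM in control and 7.65, 9.57 and 4.78 CPM in AMD3100. The values of both groups covered nearly the same range, with the replicate 3 library the lowest of each. The estimate on the log2 scale was -0.027 ± 0.54 (SE, 95% interval -1.25 to 1.19, edgeR unadjusted p = 0.960), an interval that still holds a change of 2.29-fold upward. Without both replicate 3 libraries it was -0.038. Hbegf took between 61.3% and 79.6% of the ligand reads of a library, and the intervals of these shares overlapped.

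Btc, the gene for betacellulin, lies on chromosome 5 from 91357261 to 91402994. It had 23, 9 and 17 reads in the control tubes against 44, 4 and 3 under AMD3100, or 2.01, 0.654 and 1.69 CPM against 2.53, 0.368 and 0.368 CPM. AMD3100 replicate 1 held the highest value of all, and the 2 other AMD3100 libraries held the lowest. The estimate on the log2 scale was -0.39 ± 1.32 (SE, edgeR unadjusted p = 0.776). Single libraries moved this value widely, to -1.95 (95% interval -5.95 to 2.06) without AMD3100 replicate 1, 0.015 without AMD3100 replicate 2, -0.0023 without AMD3100 replicate 3, -0.089 without control replicate 1 and -0.74 without control replicate 2. It was -0.84 with the replicate block and 0.12 without both replicate 3 libraries. At its 3′ end, 18.2% of the 50-base stretches were not unique in the genome. A gene on the same strand, Gm15710, overlaps the 3′ end of Btc in GENCODE vM1, and its part in these counts was not tested.

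Nrg1, a neuregulin on chromosome 8 from 31807452 to 32891609, had 19, 9 and 9 reads in the control tubes against 23, 4 and 4 under AMD3100 and did not pass the filter on low counts. Its levels were 1.66, 0.654 and 0.896 CPM in control and 1.32, 0.368 and 0.490 CPM in AMD3100. Nrg1 was lower in AMD3100 in 3 of 3 same-numbered pairs, although the groups overlapped. AMD3100 replicate 1 lay above control replicates 2 and 3, and same-numbered libraries of replicates 1 and 2 were no more alike than differently numbered ones. When all genes with at least 1 count were fitted, its estimate on the log2 scale was -0.54 ± 1.74 (SE, edgeR unadjusted p = 0.763).

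Egf, Areg and Tgfa were each carried mainly by a single library. Egf, on chromosome 3 from 129677574 to 129755322, had 0, 0 and 5 reads in the control tubes against 4, 41 and 0 under AMD3100. AMD3100 replicate 2 held 82.0% of its counts, and the 2 other AMD3100 libraries lay within the range of the controls. Areg, the gene for amphiregulin on chromosome 5 from 91139599 to 91148432, had 0, 18 and 0 reads in the control tubes against 0, 0 and 1 under AMD3100. Control replicate 2 held 94.7% of the Areg counts, as it did for most of those of Erbb3. Tgfa, on chromosome 6 from 86195038 to 86275744, had 5, 0 and 0 reads in the control tubes against 0, 0 and 2 under AMD3100. No fold is given for these 3 ligands, since 3 of 6 libraries for Egf, and 5 of 6 for Areg and for Tgfa, were at or under the floor.

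Across the family, 4 of the 10 members (Erbb2, Egfr, Hbegf and Btc) could be tested between AMD3100 and control, and 0 of the 4 had an adjusted p-value under 0.05 in edgeR's quasi-likelihood test. Of all 13610 genes tested, 0 (0%) passed. At an unadjusted p-value under 0.05 there were 0 members, against 228 (1.68%) of all genes tested. None of the 4 had groups that did not overlap, against 7.44% of all genes tested. With the replicate block, 3 of all genes had an adjusted p-value under 0.05 and 907 (6.66%) an unadjusted one, with 0 members in either count. DESeq2 called 5 genes and limma-voom called 0, again without a member. A miss of the threshold does not show that the members were unchanged, since the upper ends of the 95% intervals lie at 2.24-fold or more for each of the 4. The within-group SD of log2 CPM was 0.55 for Hbegf, 0.62 for Egfr, 0.73 for Erbb2 and 1.09 for Btc, against a median of 0.63 over all genes tested, and that of Btc was larger than in 77.6% of them.

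**Figure D3:**
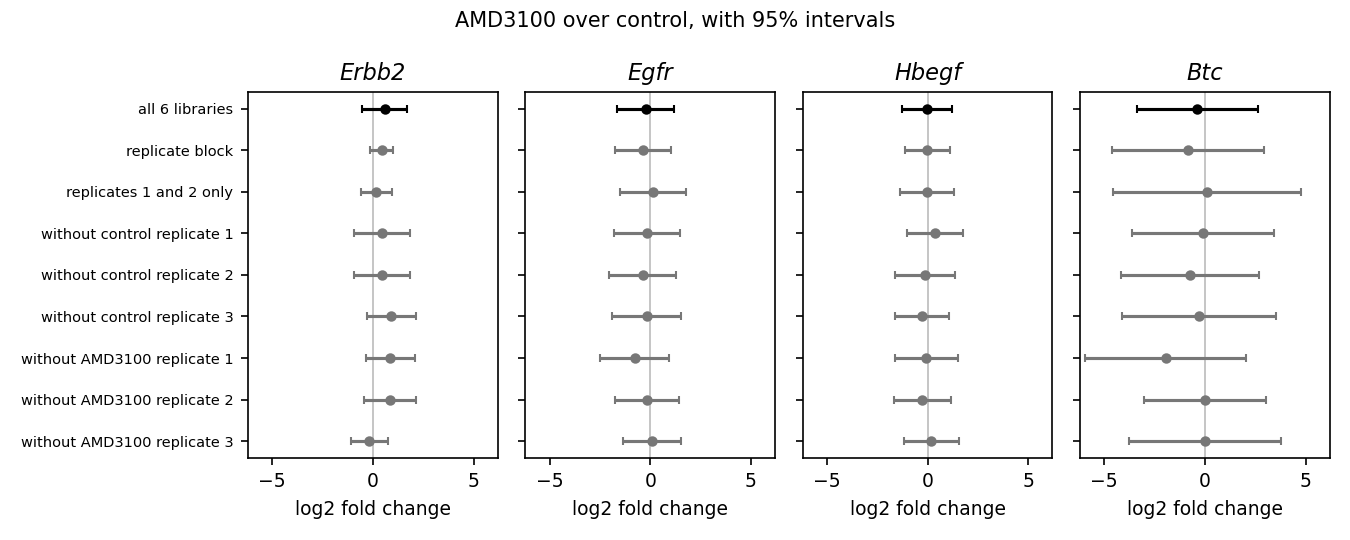
Log2 fold changes of AMD3100 over control with 95% intervals for the 4 members tested, from edgeR's fit of all 6 libraries (black) and from fits with a replicate block or with libraries left out (grey). Every interval crosses 0, and the point for Erbb2 moves from 0.58 to -0.17 without AMD3100 replicate 3.

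The wider pathway was examined with 74 genes in 5 lists. Of the 67 that could be tested, 0 had an adjusted p-value under 0.05 in edgeR's test, and 1 (1.49%) had an unadjusted one, against the 1.68% of all genes. AMD3100 and control libraries did not overlap for 4 of the 67 (5.97%), namely Lrig2, Plcg1, Pik3r2 and Dusp6, against 7.44% of all genes, and Plcg1 entered this count through the filter on low counts, as described with its values. The median log2 fold change of the 67 was -0.02, and that of all genes tested was 0.02.

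The remaining ligands of the family were sparsely counted. Ereg, Epgn and Nrg2 did not pass the filter, and Nrg3 and Nrg4 had log2 fold changes of -0.91 and 0.07 with standard errors of 1.61 and 1.87. Their direction turned with single libraries, from -2.57 without AMD3100 replicate 3 to 0.28 without control replicate 1 for Nrg3 and from -1.05 without AMD3100 replicate 2 to 1.98 without control replicate 2 for Nrg4. Nrg2, a neuregulin named here after its values were seen, had 3, 4 and 2 reads in the control tubes against 21, 61 and 4 under AMD3100. Its AMD3100 libraries lay above its control libraries in CPM, but AMD3100 replicate 3 had no more counts than control replicate 2. In the list for ligand shedding, 8 of 10 genes were tested, 4 with a higher and 4 with a lower estimate. Rhbdf1, an inactive rhomboid that helps the protease ADAM17 mature, was at 17.1 ± 4.51 CPM in control and 22.9 ± 9.08 CPM in AMD3100 (SD, n = 3 each), with a log2 estimate of 0.42, which was 0.15 without AMD3100 replicate 2 and 0.69 without AMD3100 replicate 3. Adam19, a protease that cleaves neuregulin, was at 28.2 ± 1.79 and 23.1 ± 4.79 CPM (SD, n = 3 each), with an estimate of -0.29 on the log2 scale, which was -0.15 without AMD3100 replicate 1 and -0.46 without AMD3100 replicate 3. Adam17 itself was the most abundant gene of the list with a mean of 89.4 CPM over all libraries.

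Among 19 genes listed for restraint or turnover of the receptors, whose roles are not all of 1 direction, 9 had a higher and 10 a lower estimate. Lrig2, of the LRIG family of membrane proteins, had 15.1 ± 1.31 CPM in control and 21.7 ± 3.10 CPM in AMD3100 (SD, n = 3 each), and its groups did not overlap. Its estimate on the log2 scale was 0.52 ± 0.32 (SE, edgeR unadjusted p = 0.140). Errfi1, which encodes the EGFR inhibitor MIG6, was at 11.9 ± 4.21 and 7.24 ± 2.18 CPM (SD, n = 3 each), with an estimate of -0.72 ± 0.48 (SE).

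Of 25 adaptors and proximal effectors, 24 were tested, 13 with a higher and 11 with a lower estimate, and Vav2 had 0 counts in all 6 libraries. Plcg1, the gene for phospholipase C gamma 1, had 0, 7 and 7 reads in the control tubes against 41, 56 and 8 under AMD3100. Its levels were 0, 0.509 and 0.697 CPM in control and 2.36, 5.15 and 0.981 CPM in AMD3100, with AMD3100 replicate 3 close to the controls. It passed the filter on low counts only through its AMD3100 libraries and so had to differ, and no test of it is given. A gene on the opposite strand, Zhx3, overlaps the 3′ end of Plcg1. Stat5b, a transcription factor activated by receptor kinases, had a log2 fold change of -0.80 ± 0.64 (SE), which was -1.58 without AMD3100 replicate 3 and -0.12 without control replicate 3. Pik3r2, a regulatory subunit of PI3 kinase, was the other gene of this list whose groups did not overlap, at 68.9 ± 6.77 CPM in control and 82.4 ± 10.3 CPM in AMD3100 (SD, n = 3 each).

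Transcripts known to be induced by EGF signalling, and by other growth factors through the same ERK route, had a median log2 fold change of -0.26 over the 14 of 15 genes tested, with 5 higher and 9 lower estimates. Dusp6, a phosphatase that switches off ERK, was the 1 gene of the 67 with an unadjusted p-value under 0.05. It had 2697, 2944 and 2639 reads in the control tubes against 1691, 2024 and 1078 under AMD3100, and its groups did not overlap. Its level was 238 ± 24.4 CPM in control and 139 ± 44.8 CPM in AMD3100 (SD, n = 3 each), with a log2 estimate of -0.78 ± 0.32 (SE, edgeR unadjusted p = 0.0376, adjusted p = 1.0). The list had 0 genes under this level without control replicate 1, control replicate 2 or AMD3100 replicate 1, and the log2 fold change of Dusp6 lay between -1.05 and -0.58 with each library left out. With the replicate block, 5 of the 14 (Dusp6, Spry4, Ccnd1, Ier2 and Egr1) had an unadjusted p-value under 0.05, each with a lower estimate, against 6.66% of all genes in that fit, and 0 an adjusted one, the lowest being 0.386 for Dusp6 in edgeR. In the same fit, the adaptors had 2 genes with a higher estimate (Rasa1 and Shc1) and 1 with a lower one (Stat5b) at this unadjusted level. The list for receptor restraint and turnover had 1 with a higher one (Eps15), and the lists of ligands and of shedding had 0. Ier3, an early response gene, had the lowest p-value among the higher estimates, with a log2 fold change of 0.45 ± 0.37 (SE), which was 0.098 without AMD3100 replicate 3 and 0.71 without control replicate 3. With each library left out in turn, the median of the list ranged from -0.29 to -0.00031, the latter without control replicate 3, and without both replicate 3 libraries it was -0.15.

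**Figure D4:**
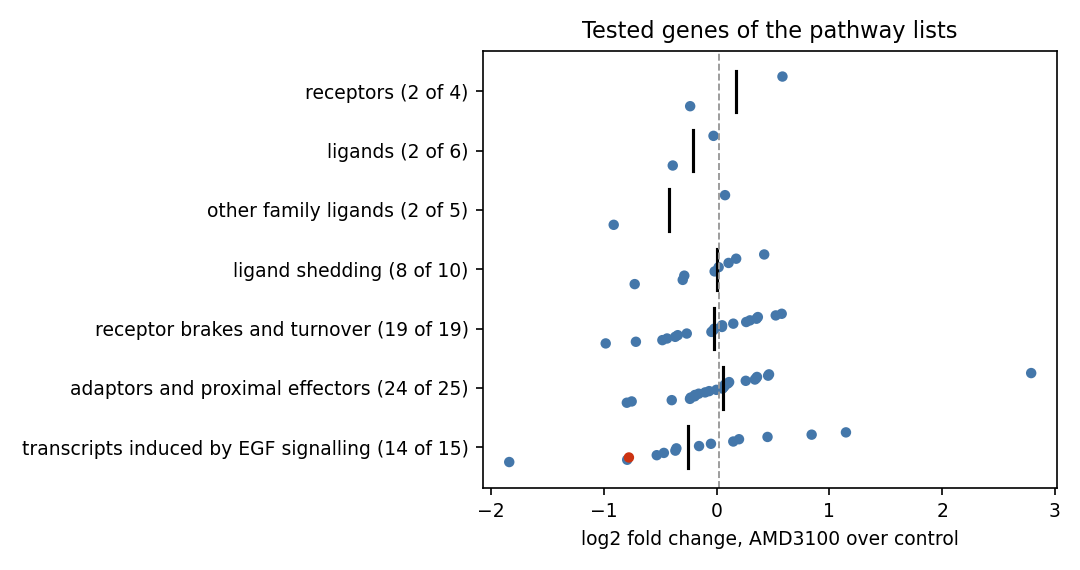
Log2 fold changes of AMD3100 over control for the tested genes of the family and of the 5 pathway lists (number tested of number listed in brackets), with 1 point per gene, the list median as a black bar and the median of all genes tested, 0.02, as a dashed line. The red point is Dusp6, and the point farthest to the right, at 2.79, is Plcg1, which passed the filter only through its AMD3100 libraries.

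Markers of the cell types in the gland were measured beside the family, and every marker gene listed had a count in at least 1 library. The 14 epithelial markers, led by Krt15, summed to 2346, 2357 and 1554 CPM in control and to 2801, 2475 and 3547 CPM in AMD3100. The AMD3100 sums lay above the control sums, and without Krt15 the groups overlapped, at 1306, 1347 and 667 CPM against 1436, 1461 and 1079 CPM, with the AMD3100 library still the higher in 3 of 3 same-numbered pairs. Of the 14, 9 had a higher and 5 a lower estimate, with a median log2 fold change of 0.14. With each library left out in turn, this median ranged from -0.08 without control replicate 3 to 0.38 without AMD3100 replicate 3. It was -0.02 without both replicate 3 libraries. With the replicate block, 3 of the 14 (Krt14, Krt15 and Cdh1) had an unadjusted p-value under 0.05, each with a higher estimate, against 6.66% of all genes in that fit, and 0 an adjusted one in edgeR. At the same level the block gave 2 of 8 muscle markers (Myog and Myod1), 2 of 7 red cell markers (Hbb-b1 and Hbb-b2), 1 mesenchymal marker (Twist1) and 1 Schwann cell marker (Fabp7), each with a lower estimate, and 0 of the neuronal, endothelial and macrophage markers. AMD3100 replicate 3 held the highest values of both Krt15, at 2468 CPM, and Erbb2. Control replicate 3, the library second in Erbb2, held the lowest value of Krt15, at 887 CPM.

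The 12 mesenchymal markers, led by Col3a1, summed to between 4549 and 4620 CPM in the 4 libraries of replicates 1 and 2 and to 2340 and 1989 CPM in control and AMD3100 replicate 3. The collagens Col3a1, Col1a2 and Col1a1 carried most of these sums and of the difference of replicate 3. Col3a1 was at 406 and 414 CPM in control and AMD3100 replicate 3, against 1390 to 1419 CPM in the others. Among the controls, replicate 3 was highest for Prrx1, Pdgfrb, Lum and Twist2 and lowest for Vim, Pdgfra, Twist1, Osr1 and Dcn. Within pairs of the same number, the mesenchymal sums were lower in AMD3100 in 3 of 3, by little in replicates 1 and 2. That of AMD3100 replicate 1 lay above control replicate 2. The sums of the 8 skeletal muscle markers, led by Myog, went the other way. They were 109 to 182 CPM in the 4 libraries of replicates 1 and 2 and 1467 and 1835 CPM in the replicate 3 libraries. Without AMD3100 replicate 3, control replicate 3 had no counterpart. In that fit, 6 of the 8 muscle markers had an unadjusted p-value under 0.05 in edgeR, each with a lower estimate, and 0 an adjusted one. Of all 13610 genes tested, 417 had such an unadjusted p-value there, 334 of them with a lower estimate. Erbb2 was higher and Hbegf was lower in the 2 replicate 3 libraries. The 6 Schwann cell markers, led by S100b, also differed by replicate, at 208 and 146 CPM in the replicate 3 libraries against 58.9 to 78.9 CPM in the others, and Erbb3, on which Schwann cells depend, had 1 and 3 counts there. Fabp7, named after its values were seen, was the 1 gene of the Schwann cell list with an unadjusted p-value under 0.05 (log2 fold change -1.82, edgeR unadjusted p = 0.0126, adjusted p = 1.0). Without control replicate 3 its log2 fold change was -1.01, and 0 genes of the list were under that level. The 8 neuronal markers, led by Prph, summed to between 870 and 1532 CPM. The 6 endothelial markers, led by Kdr, summed to between 21.5 and 55.6 CPM, and the 6 macrophage markers, led by Cx3cr1, to between 68.2 and 137 CPM. The 7 red cell markers, led by Hba-a1, summed to between 6955 and 19221 CPM, and all 7 had lower estimates in AMD3100, with a median log2 fold change of -0.35 and 0 at an unadjusted p-value under 0.05 in edgeR with all 6 libraries. Control replicate 2 held the highest sum, and without it the median was -0.10 and the estimates of Hba-a1 and Hbb-y were 0.29 and 0.41. Without control replicate 3, those of Hbb-b2 and Alas2 were 0.11 and 0.71. The median moved the other way without control replicate 1, to -0.69, and without AMD3100 replicate 3, to -0.92. In each of these last fits 1 red cell marker had an unadjusted p-value under 0.05 in edgeR, against 192 and 417 of all 13610 genes tested. Outside the epithelial list the sums of the groups overlapped, and the part of the tissue mixture in the levels of the family was not tested.

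**Figure D5:**
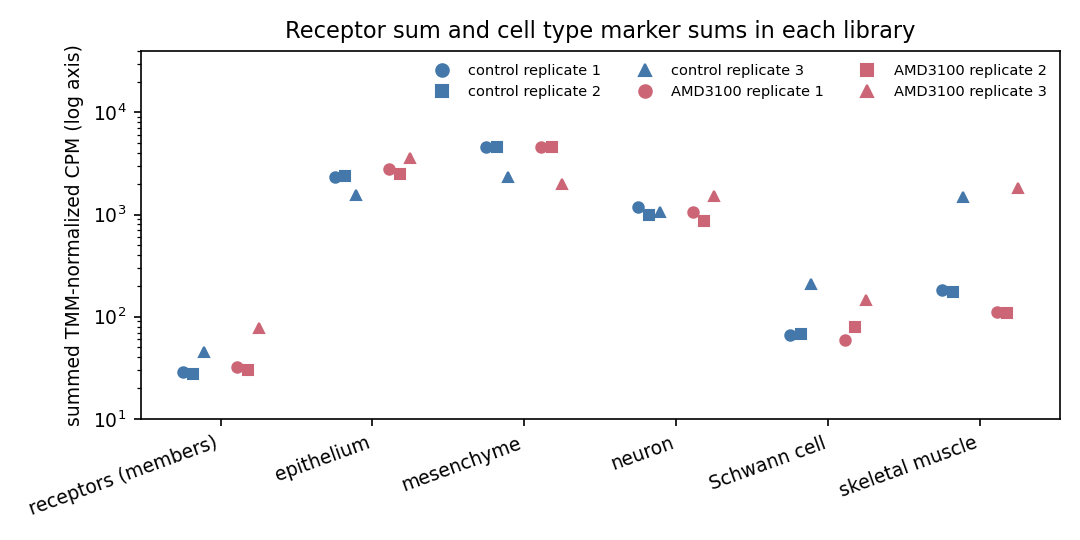
Summed TMM-normalized CPM (log axis) of the 4 receptors and of 5 lists of cell type markers in each library, controls in blue and AMD3100 in red, with triangles for replicate 3. The triangles are highest for the receptor sum and for skeletal muscle, and lowest for mesenchyme, in both groups. Collagens carry most of the mesenchyme sum.

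Genes whose profile over the 6 libraries was most like that of Erbb2 were sought among 8241 tested genes with a mean of at least 10 CPM, by the root mean square difference of log2 CPM after each gene was centred on its mean. The nearest were Meg3 (0.11), a maternally expressed long RNA, Zfp219 (0.14) and Atxn7l3 (0.16). Meg3 stood at 1118, 1129 and 1944 CPM in control and at 1230, 1142 and 3205 CPM in AMD3100, with both replicate 3 libraries above the rest. For Hbegf, the nearest were Armcx6 (0.049), Ireb2 (0.077) and Ap1m1 (0.084), and 81.8% of the 3′ stretches of Armcx6 matched other places of the genome. Ireb2, which encodes an iron regulatory protein, stood at 72.6, 42.5 and 31.3 CPM in control and at 53.3, 61.5 and 35.8 CPM in AMD3100, with replicate 3 the lowest of each group, as for Hbegf. These likenesses rest on 6 libraries that differ in depth and in their marker sums, and they describe these libraries only.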

How the data were processed

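The authors deposited raw read counts per gene symbol, 1 table for each of the 6 libraries (3 control, 3 AMD3100), made with a 3′ mRNA kit and 50 bp single reads. Per the labels, the submitters' processing notes name Bowtie2, edgeR and mm10 without versions. The annotation and the counting step are not given in the sources used here. Each table had 23282 lines, and 22 that repeated both the symbol and the counts of another line were left out. Groups and replicate numbers came from the sample titles.

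Counts were compared with edgeR 4.0.16 in R 4.3.3 (TMM, filterByExpr on condition, glmQLFit, glmQLFTest, condition as the only term) over 13610 genes, with Benjamini-Hochberg adjustment. This test replaced the study's normalization by quantiles and test per gene, since the files hold counts. A gene was called at an adjusted p-value under 0.05. Standard errors came from the coefficient and its F. The biological coefficient of variation was 0.579. Pairing by the replicate numbers of the titles was checked by correlating, across genes, the deviations of same-numbered libraries from their group means (0.185, 0.171 and 0.584 for replicates 1, 2 and 3). Between replicates 1 and 2, differently numbered libraries correlated as much (0.198 and 0.146), so the numbers set apart replicate 3 only. Alternatives were DESeq2 1.42.0, upper quartile scaling, limma-voom 3.58.1 after quantile normalization, other filters, robust estimation, a replicate block, and libraries left out.

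Named were all 10 members, in each of the 5 pathway lists the gene with the lowest p-value in each direction, the most abundant gene of each marker list, and the 3 genes nearest in profile to the top receptor and the top ligand. All other genes named were chosen after their values were seen. The members and lists were chosen with earlier results of these data known. Positions are those of RefSeq on GRCm38.p6, the assembly that mm10 denotes. For 3′ ends, GENCODE vM1 on NCBIM37 was used, which holds 87.4% of the symbols, and from the last 300 bases of the longest transcript 50-base stretches every 25 bases were aligned with minimap2 2.31-r1302. A stretch counted as not unique when its second-best alignment was at most 1 mismatch worse. The signals AATAAA and ATTAAA were sought on the transcript strand in the last 40 bases. Of the 10 members, 8 had either of them, all but Erbb2 and Nrg1, against 65.5% of protein-coding genes.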

Additional observations from a re-analysis of the deposited data

How the results depend on the processing

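No member had an adjusted or an unadjusted p-value under 0.05 in edgeR's fit of all 6 libraries or in any alternative run. The number of genes with an adjusted p-value under 0.05 moved from 0 to 5 with DESeq2 and to 3 with the replicate block. The number with an unadjusted p-value under 0.05 moved from 228 to 907 with the replicate block and to 758 with replicates 1 and 2 only, and with each library left out in turn it lay between 153 and 481. The replicate block, for libraries paired by number, changed no call of a member. The direction of each tested member turned in at least 1 alternative. Estimates on the log2 scale with each library left out ranged from -0.17 to 0.92 for Erbb2, from -0.76 to 0.080 for Egfr, from -0.26 to 0.36 for Hbegf and from -1.95 to 0.015 for Btc. With replicates 1 and 2 only it was 0.14 for Egfr and 0.12 for Btc, and with limma-voom after quantile normalization it was 0.062 for Hbegf. Fewer libraries entered the first of these fits, and otherwise the cause was not tested. Btc gave no value with at least 10 counts in every library. Of the low members, 5 had 0 counts in at least 3 libraries, and the part of depth, annotation and strand in this was not tested.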
